A study of Mus musculus with 6 samples.

Results

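The endoplasmic reticulum (ER) is where secreted and membrane proteins are folded, and its lumen holds chaperones that bind unfolded chains and enzymes that make and rearrange disulfide bonds. When unfolded protein builds up there, sensors in the ER membrane set off the unfolded protein response, in which the transcription factors ATF6 and XBP1 raise the transcription of these chaperones together. Neurons make large amounts of receptor, channel and adhesion protein, and the pathway is widely used as a readout of ER load in brain tissue.

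The 10 genes described here were chosen by name from the 21878 genes of a bulk RNA sequencing data set of mouse prefrontal cortex: Hspa5, Hsp90b1, Calr, Pdia4, Pdia6, Dnajb9, Sdf2l1, Manf, Creld2 and Xbp1. All 10 had a row and all 10 were among the 14440 genes that passed the filter on low counts, so none was left out. The set compared 3 Gls1_CamkIIaCre mice, which carried CamKIIα-Cre and a single floxed Gls1 allele (CamKIIαCre;Gls1+/flox), with 3 littermate control mice that carried the same Cre and no floxed allele (CamKIIαCre;Gls1+/+, labelled WT). Both groups therefore carried the Cre. The CamKIIα promoter drives it in excitatory forebrain neurons, recombination was mosaic, homozygous floxed animals were not viable, and RNA came from all cells of the tissue, so each library mixes recombined neurons with all other cells. The sources used here do not give the age of the mice.

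Gls1_CamkIIaCre libraries held 18644314, 17987807 and 19265382 counts, and control libraries 19330961, 18997592 and 18665024. Cortical excitatory neuron markers, among them Slc17a7 and Tbr1, were present in every library, with summed levels of 6330 to 7073 CPM (TMM-normalised counts, scaled to library size) in Gls1_CamkIIaCre and 6206 to 6572 CPM in control. Of the 10, Neurod2 and Fezf2 were called higher. Camk2a, whose promoter drives the Cre, had 3405, 3513 and 3769 CPM in Gls1_CamkIIaCre against 3267, 3307 and 3193 CPM in control (edgeR adjusted p = 0.0602). Striatal neuron markers separated the groups far more: their sum was 222.6, 236.3 and 254.8 CPM in Gls1_CamkIIaCre against 584.3, 993.6 and 671.2 CPM in control, with 8 of 10 called lower, and none of the 10 was at 0 in any library. Markers of astrocytes (4 of 8 called lower, sum 1962 to 1993 against 2087 to 2120 CPM in control), interneurons (4 of 8, 1046 to 1226 against 1240 to 1335), oligodendrocytes (3 of 8, 3037 to 3477 against 3329 to 3944), microglia (1 of 8, 382.6 to 409.4 against 406.7 to 436.6), endothelial and mural cells (5 of 8, 330.9 to 350.9 against 360.9 to 402.7) and meningeal fibroblasts (6 of 8, 126.0 to 144.2 against 163.9 to 181.4) had called genes on the lower side only. The 6 of 8 tested markers of choroid plexus and ependyma summed to 11.8 to 15.6 CPM in Gls1_CamkIIaCre and 16.7 to 19.8 CPM in control. None was called by edgeR (unadjusted, 2 lower). Of the 6 markers of B cells and of plasma cells, which are rich in ER, only 2 were tested, Jchain and Sdc1. Cd79a, Cd79b, Mzb1 and Igkc were not. The 2 tested summed to 2.11 to 3.32 CPM in Gls1_CamkIIaCre and 2.36 to 2.96 CPM in control, with no call by edgeR (unadjusted, 0 lower). The part of these cell types in the results below was not tested. In bulk tissue, fewer cells of a type, less RNA per cell and a different share of neighbouring tissue in the dissection cannot be told apart. A difference in dissection between the groups would be confounded with genotype here.

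The start of each gene was read first, because ER chaperones share a promoter element through which ATF6 and XBP1 act, the ER stress response element (ERSE), spelled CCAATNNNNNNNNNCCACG. It was searched on both strands of the 250 bases upstream of the RefSeq start (GRCm38.p6), which was given for 9 of the 10 genes. It occurred upstream of 5 of those 9 genes, against 35 of 27025 genes in the whole table (0.13%). The members with it were Hspa5, Hsp90b1 (2 copies), Calr, Pdia6 and Creld2. Pdia4, Dnajb9, Sdf2l1 and Xbp1 had no copy of these letters in this window. The shorter variant ATTGGNCCACG and the XBP1 element TGACGTGG were found upstream of 0 of the 9, and of 0.037% and 0.603% of all genes.

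The full windows of Hspa5 (chr2:34771840-34772089, plus strand) and Calr (chr8:84846932-84847181, minus strand) are shown because these were the members whose expression differed, followed by shorter stretches around the element of the other members that have it. All are written 5′ to 3′ along the gene, from RefSeq GRCm38.p6, with the element in capitals. In Calr, Creld2 and the nearer copy of Hsp90b1 the element lies on the opposite strand, so the capitals read as its reverse complement.
Hspa5: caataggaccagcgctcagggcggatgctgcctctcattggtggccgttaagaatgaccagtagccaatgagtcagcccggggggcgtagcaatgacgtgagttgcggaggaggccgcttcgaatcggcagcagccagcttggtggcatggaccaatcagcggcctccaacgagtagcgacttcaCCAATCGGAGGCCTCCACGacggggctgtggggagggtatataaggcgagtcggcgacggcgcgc
Calr: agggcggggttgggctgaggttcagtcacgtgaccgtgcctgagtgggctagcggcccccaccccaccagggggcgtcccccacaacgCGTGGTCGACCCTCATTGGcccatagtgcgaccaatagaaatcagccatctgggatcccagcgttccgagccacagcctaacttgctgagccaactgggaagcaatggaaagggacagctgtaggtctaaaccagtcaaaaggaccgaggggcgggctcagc
Hsp90b1 (far copy, chr10:86705628-86705666): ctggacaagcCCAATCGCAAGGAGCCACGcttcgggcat
Hsp90b1 (near copy, chr10:86705523-86705561): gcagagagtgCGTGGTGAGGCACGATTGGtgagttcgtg
Pdia6 (chr12:17266481-17266519): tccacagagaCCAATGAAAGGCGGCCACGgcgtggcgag
Creld2 (chr15:88819510-88819548): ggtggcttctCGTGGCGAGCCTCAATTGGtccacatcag
The Hspa5 copy was the closest to its gene, at positions -65 to -47 counted from the start, and the far copy of Hsp90b1 the most distant, at -212 to -194. The Calr copy lay at -162 to -144, the Pdia6 copy at -98 to -80 and the Creld2 copy at -126 to -108. A match of letters is a description of the sequence and not a measured binding site.

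**Figure D1:**
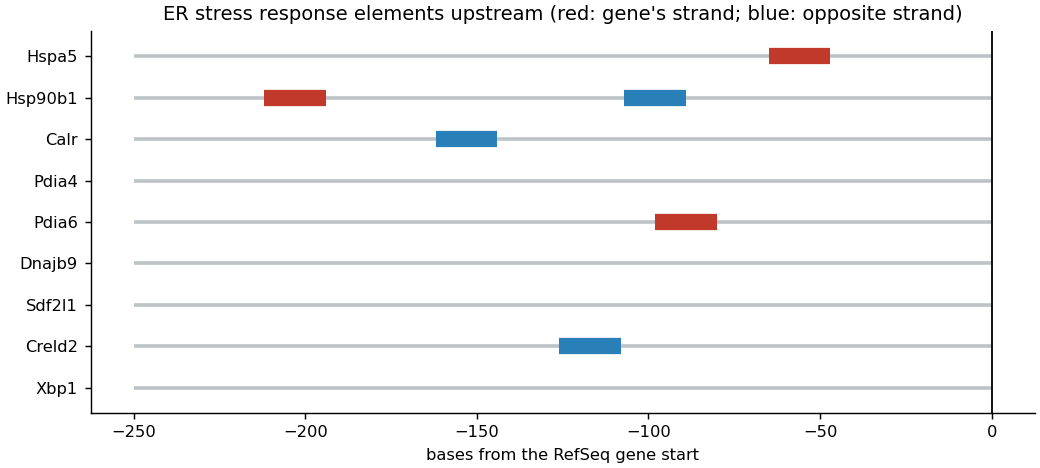
Position of the ER stress response element in the 250 bases upstream of the 9 members with a RefSeq promoter, in bases from the gene start at 0 (red, gene's strand; blue, opposite strand). Hsp90b1 has 2 copies, Hspa5, Calr, Pdia6 and Creld2 have 1 each, and the others have none.

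Hspa5 and Calr, the most abundant chaperones of the set besides Hsp90b1, were modestly lower in Gls1_CamkIIaCre cortex, and the other 8 members did not pass the test. The test was edgeR's quasi-likelihood test with Benjamini-Hochberg adjustment over all 14440 tested genes, and an adjusted p under 0.05 counts as a call. By this rule 2 of the 10 members were lower and 0 were higher, whereas 4.29% of all tested genes were called lower, 3.95% higher and 8.24% in either direction (1190 genes, 571 higher and 619 lower). At an unadjusted edgeR p under 0.05, 4 members were lower and 0 higher, beside 1626 lower and 1606 higher of all 14440 tested genes. The unadjusted counts of the other lists are to be read beside the same background. DESeq2 and limma voom each called the same 2 members lower and 0 higher. Higher genes made up 48.0% of all calls, but 36.4% under upper-quartile scaling and 18.1% on log2(FPKM + 1). Fewer genes were called with any 1 library left out. The numbers were 778, 415 and 876 without Gls1_CamkIIaCre 1, 2 and 3, and 763, 635 and 1098 without control 1, 2 and 3.

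**Figure D2:**
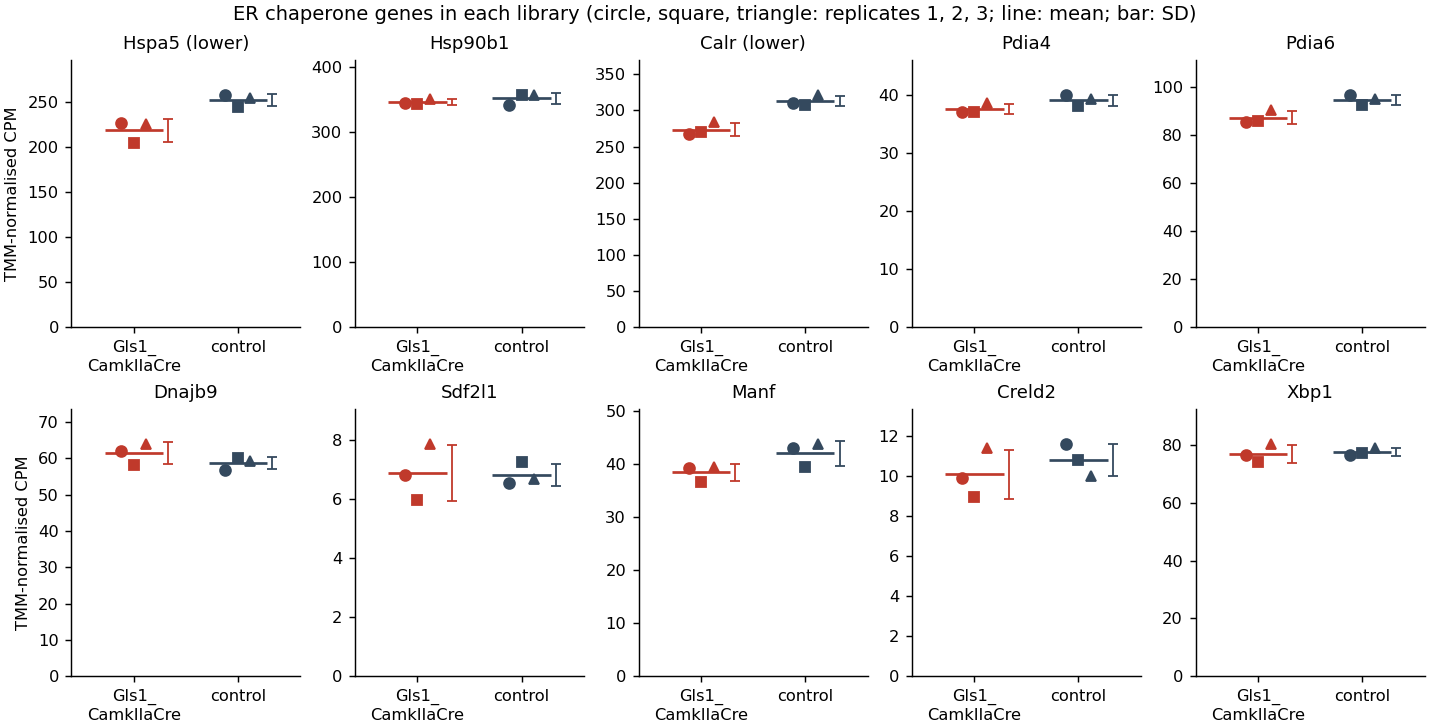
TMM-normalised CPM of each of the 10 genes in the 3 Gls1_CamkIIaCre libraries (red, left) and the 3 control libraries (blue, right), with replicates 1, 2 and 3 as circle, square and triangle, the mean as a line and the SD as a bar, on axes that start at 0. The groups stand apart for Hspa5, Calr and Pdia6, and overlap for the other 7 genes.

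Hspa5 encodes BiP, the Hsp70 of the ER, which binds hydrophobic stretches of unfolded chains and also holds the stress sensors inactive. It lies at chr2:34772090-34776529 (GRCm38). Hspa5 had 227.5, 204.4 and 225.9 CPM in Gls1_CamkIIaCre against 258.4, 245.5 and 255.1 CPM in control. Every Gls1_CamkIIaCre library lay below every control, and replicate 2 was the lowest library of its group on both sides. The means were 219.3 ± 12.9 and 253.0 ± 6.72 CPM (SD, n = 3 each), a log2 fold change of -0.21 ± 0.044 (SE, edgeR adjusted p = 0.00614) or a change of -13.3% (95% interval -18.6% to -7.66%). These values rest on 3669 to 4285 counts in Gls1_CamkIIaCre and 4685 to 5063 in control. Without Gls1_CamkIIaCre 2 the change was -0.16 and no longer passed (adjusted p = 0.0711). Without control 2 the change was -0.23 (edgeR adjusted p = 0.0157). Hspa5 shares 1921 bases of its span with Rabepk, and the sources used here do not say whether counting used strand, so reads of the shared stretch could belong to either gene. Rabepk stood at 20.8 CPM in Gls1_CamkIIaCre and 21.4 CPM in control (log2 fold change -0.045, adjusted p = 0.781).

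Calr encodes calreticulin, a calcium-binding lectin chaperone that retains glycoproteins in the ER until they are folded and buffers the calcium of the lumen. It lies at chr8:84842088-84846931. Calr had 267.5, 269.9 and 283.3 CPM in Gls1_CamkIIaCre against 310.4, 307.4 and 321.4 CPM in control. The highest Gls1_CamkIIaCre library remained below the lowest control. The means were 273.6 ± 8.52 and 313.1 ± 7.36 CPM (SD, n = 3 each), with a log2 fold change of -0.19 ± 0.039 (SE, edgeR adjusted p = 0.00437), or -12.6% (95% interval -17.4% to -7.53%). The call held when any 1 library was left out, with adjusted p between 0.00383 and 0.0431.

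Hsp90b1 encodes GRP94, the Hsp90 of the ER lumen, which folds a narrower group of clients such as integrins and Toll-like receptors. It lies at chr10:86690841-86705444. Hsp90b1 had 344.6, 343.0 and 350.7 CPM in Gls1_CamkIIaCre against 342.2, 356.8 and 357.0 CPM in control. The groups overlapped, and the log2 fold change was -0.024 ± 0.037 (SE, edgeR adjusted p = 0.763), with a 95% interval of the change from -6.84% to 3.77%. That interval does not contain the estimates for Hspa5 or Calr. Within each library, Hspa5 had 0.660, 0.596 and 0.644 counts per Hsp90b1 count in Gls1_CamkIIaCre against 0.755, 0.688 and 0.715 in control. For Calr the same ratio, which needs no scaling between libraries, was 0.776, 0.787 and 0.808 in Gls1_CamkIIaCre against 0.907, 0.862 and 0.900 in control. Both ratios separated the groups without overlap, and the Calr to Hspa5 ratio did not (1.18, 1.32 and 1.25 in Gls1_CamkIIaCre against 1.2, 1.25 and 1.26 in control). Ratios of 2 uncalled members to Hsp90b1 did so too. Pdia6 had 0.248, 0.250 and 0.258 against 0.282, 0.259 and 0.266 in control. Dnajb9 went the other way, with 0.180, 0.169 and 0.182 against 0.166, 0.168 and 0.166 in control. Those of Pdia4, Manf and Xbp1 overlapped. The ratios use the same counts as the tests. A ratio shows an unequal change and does not say which of its genes moved.

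Pdia4 and Pdia6 encode protein disulfide isomerases, which form and rearrange disulfide bonds in the lumen. Pdia6 (chr12:17266589-17284785) had 85.5, 85.8 and 90.3 CPM in Gls1_CamkIIaCre against 96.7, 92.3 and 94.9 CPM in control. Its groups did not overlap, but its log2 fold change of -0.12 ± 0.046 (SE) did not pass (edgeR adjusted p = 0.120, 95% interval of the change -13.7% to -1.56%). Pdia6 shares 65 bases with Atp6v1c2, which averaged 1.67 CPM in Gls1_CamkIIaCre and 2.31 CPM in control. Pdia4 (chr6:47796141-47813512) had 37.0, 37.1 and 38.6 CPM in Gls1_CamkIIaCre against 40.0, 38.0 and 39.2 CPM in control, with overlapping groups (log2 fold change -0.056 ± 0.058 SE, edgeR adjusted p = 0.635). Hspa5, Calr and Pdia6 were thus the 3 of 10 members with all 3 Gls1_CamkIIaCre libraries below all controls, as for 13.6% of all tested genes. No member had all 3 above, as 13.1% of tested genes did.

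Dnajb9 and Sdf2l1 work with BiP. Dnajb9 encodes ERdj4, a J-domain cochaperone that directs BiP to misfolded chains and to the sensor IRE1, and Sdf2l1 encodes a partner of ER J-domain proteins. Dnajb9 (chr12:44205897-44210068) had 62.2, 58.0 and 64.0 CPM in Gls1_CamkIIaCre against 56.8, 60.0 and 59.4 CPM in control. Although 2 of its 3 Gls1_CamkIIaCre libraries lay above every control, the log2 fold change of 0.064 ± 0.053 (SE) did not pass (edgeR adjusted p = 0.523, 95% interval of the change -3.16% to 12.9%). Sdf2l1 (chr16:17130138-17132383) had 6.80, 5.96 and 7.86 CPM in Gls1_CamkIIaCre against 6.53, 7.23 and 6.67 CPM in control. With 107 to 149 counts per Gls1_CamkIIaCre library and 124 to 138 per control library, it was the least precisely measured member. Its 95% interval of the change, -17.2% to 23.2%, includes declines as large as those of Hspa5 and Calr (edgeR adjusted p = 0.970).

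Manf and Creld2 encode small ER proteins that are also secreted, MANF being known as a neurotrophic factor that binds BiP and CRELD2 as a protein related to disulfide exchange. Manf (chr9:106888753-106891938) had 39.2, 36.5 and 39.4 CPM in Gls1_CamkIIaCre against 43.0, 39.3 and 43.7 CPM in control. The groups overlapped only between Gls1_CamkIIaCre 3 and control 2, and the log2 fold change of -0.13 ± 0.062 (SE) did not pass (edgeR adjusted p = 0.221, 95% interval of the change -16.3% to -0.0292%). Creld2 (chr15:88819646-88826681) had 9.91, 8.97 and 11.4 CPM in Gls1_CamkIIaCre against 11.6, 10.8 and 10.01 CPM in control, also with overlap (log2 fold change -0.097 ± 0.11 SE, edgeR adjusted p = 0.680).

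Xbp1, the transcription factor that IRE1 activates by splicing its messenger RNA, is the only regulator among the members. It lies at chr11:5520641-5525993. Xbp1 had 76.4, 74.0 and 80.2 CPM in Gls1_CamkIIaCre against 76.4, 77.1 and 78.8 CPM in control. The lowest and the highest of the 6 libraries were both Gls1_CamkIIaCre, and the 95% interval of the change ran from -7.35% to 6.44% (edgeR adjusted p = 0.935). Gene counts do not separate the spliced from the unspliced form, so the activity of IRE1 was not measured.

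Summed over the 10 genes, the level was 1157, 1124 and 1192 CPM in Gls1_CamkIIaCre against 1242, 1234 and 1266 CPM in control. The called members are part of this sum, Hspa5 with means of 219.3 against 253.0 CPM in control and Calr with 273.6 against 313.1. The sum itself was not tested. The median log2 fold change of the members was -0.077, beside -0.0024 over all tested genes, and 8 of the 10 fold changes were negative, beside 7333 of 14440. Within Gls1_CamkIIaCre, though not within control, the libraries ranked alike for most members. Gls1_CamkIIaCre 2 was the lowest library of its group for 7 of the 10 genes, and Gls1_CamkIIaCre 3 the highest for 9 of 10. No control library was the lowest for more than 5 or the highest for more than 4. These ranks were not counted over all tested genes. A shift of whole libraries thus cannot be told apart from a trait of these genes. The genes whose level across the 6 libraries was most like the mean of the members, among 10059 genes at 10 CPM or more, were Spryd7 (Pearson r = 0.992), the ribosomal protein gene Rpl27 (0.990), Tmem19 (0.987), the proteasome subunit gene Psmb1 (0.984) and Pvalb, the parvalbumin of interneurons (0.983). With each group's mean taken off, so that only differences between libraries of 1 group count, they were Lrrc57 (0.991), Pvalb (0.990), Tmem19 (0.990), Spryd7 (0.988) and Lyst (0.987). None of these 7 genes was itself called. These values are a description of 6 libraries.

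The levels of the genes relative to each other were read from the deposited FPKM values, which are scaled by gene length. Mean levels in Gls1_CamkIIaCre and control were 78.9 and 93.8 FPKM for Calr, 58.5 and 68.9 for Hspa5, 65.3 and 66.6 for Hsp90b1, 30.5 and 33.3 for Pdia6, and 30.4 and 31.2 for Xbp1. Dnajb9 averaged 26.0 and 24.2 FPKM, Manf 13.1 and 14.6, Pdia4 7.40 and 7.94, Sdf2l1 6.60 and 6.67, and Creld2 5.11 and 5.98. The members thus spanned a wide range, Calr standing above 96.4% of tested genes in Gls1_CamkIIaCre and 96.8% in control, and Creld2 above 48.3% and 52.2%. In the order of the means, only Hspa5 and Hsp90b1 changed places between the groups. Hspa5 had 60.6, 54.6 and 60.4 FPKM in Gls1_CamkIIaCre, all below the 65.1 to 65.5 FPKM of Hsp90b1 there. In control Hspa5 had 71.4, 65.9 and 69.2 FPKM and Hsp90b1 65.2 to 67.9 FPKM, and those ranges overlapped. Other neighbours in the order whose ranges overlapped were Pdia6 with Xbp1 and Pdia4 with Sdf2l1 in Gls1_CamkIIaCre, and Sdf2l1 with Creld2 in control. FPKM values were lower in Gls1_CamkIIaCre as a whole, with sums over all genes of 238924 to 243144 against 249602 to 252272 in control. Relative to those sums the 10 genes made up 0.135%, 0.131% and 0.136% in Gls1_CamkIIaCre against 0.141%, 0.139% and 0.143% in control.

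**Figure D3:**
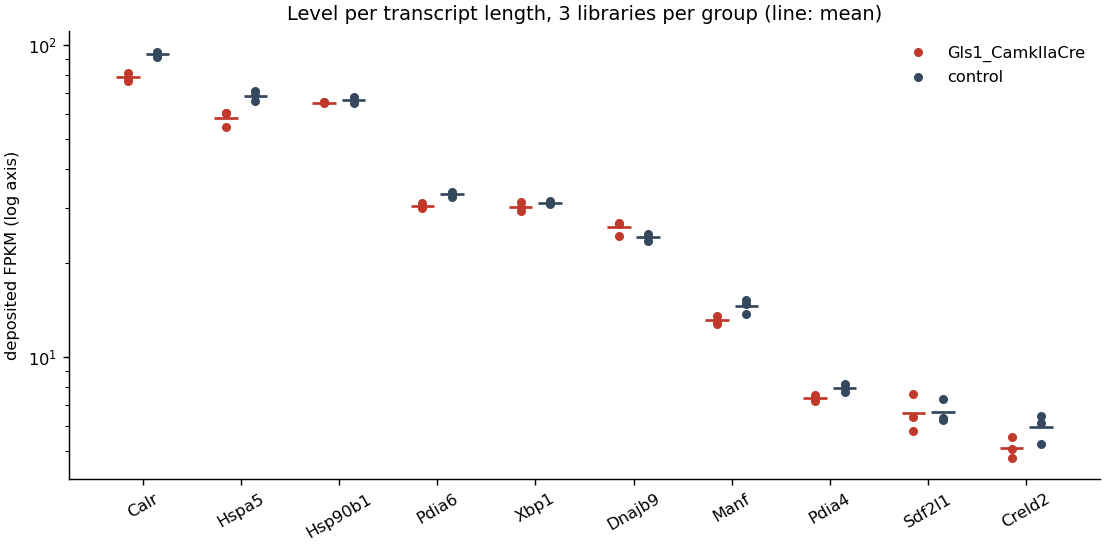
Deposited FPKM of the 10 genes on a log axis, in order of their control level, with Gls1_CamkIIaCre libraries in red (left) and control libraries in blue (right) and the mean as a line. Hspa5 lies below Hsp90b1 in every Gls1_CamkIIaCre library, while their ranges overlap in control, and the genes span levels of 5.11 to 78.9 FPKM in Gls1_CamkIIaCre.

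The rest of the pathway was read from lists by role, 82 tested genes in all. Among 20 other ER chaperones and oxidoreductases, Dnajb11 was lower and 0 were higher by edgeR (unadjusted, 5 lower and 1 higher), with a median log2 fold change of -0.045. Dnajb11 encodes ERdj3, a J-domain protein that hands substrates to BiP. It had 45.4, 46.2 and 46.2 CPM in Gls1_CamkIIaCre against 53.1, 49.5 and 54.1 CPM in control, with no overlap (log2 fold change -0.19 ± 0.055 SE, edgeR adjusted p = 0.0408). The number of lower genes in this list was 3 with upper-quartile factors and 5 with the replicate block. The Dnajb11 call was lost with DESeq2 (adjusted p = 0.119) and limma voom (0.0521), neither of which called any gene of this list. It was also lost when Gls1_CamkIIaCre 1, 2 or 3, or control 1 or 3, was left out (edgeR adjusted p = 0.0769 to 0.126). Further losses came with the length and GC correction (edgeR adjusted p = 0.0816) and by limma in all FPKM settings (0.0812 to 0.108).

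Upstream of the chaperones, 0 of 9 stress sensors and their transcription factors were called by edgeR, DESeq2 or limma voom (unadjusted, 1 higher and 0 lower), and their median was 0.041. Those of smallest p were Atf6b, a relative of ATF6, with 42.2 ± 2.12 CPM in Gls1_CamkIIaCre and 38.5 ± 1.79 CPM in control (SD, n = 3 each, edgeR adjusted p = 0.206), and Eif2ak3, the sensor kinase PERK, with 36.2 and 33.2 CPM (edgeR adjusted p = 0.286). Of 16 genes of ER-associated degradation, which returns misfolded proteins to the cytosol, 0 were called by any of these tools (unadjusted, 2 higher and 2 lower; median -0.010). The lectins Erlec1 and Os9, which pass misfolded glycoproteins to the ubiquitin ligase, had the smallest p there, at 87.3 against 80.4 CPM in control and 140.5 against 129 CPM in control (edgeR adjusted p = 0.130 and 0.135).

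Of 7 tested targets of ATF4, the transcription factor of the PERK branch, 2 were lower and 0 higher by edgeR, DESeq2 and limma voom alike (unadjusted, 2 lower and 2 higher; median -0.010), while Trib3 was too low to be tested. The targets with a positive fold change at an unadjusted p under 0.05, named here after their values were seen, were Asns, the asparagine synthetase, and Atf3, a stress-induced transcription factor. Asns had 95.6, 104 and 108 CPM in Gls1_CamkIIaCre against 86.2, 92.2 and 96.9 CPM in control, with overlap (log2 fold change 0.16 ± 0.053 SE, adjusted p = 0.0675). Atf3 averaged 0.830 CPM in Gls1_CamkIIaCre and 0.349 CPM in control (adjusted p = 0.180). In 6 of the 18 alternatives 1 target was called higher: with no filter, the replicate block or the length and GC correction, and without Gls1_CamkIIaCre 1, control 2 or control 3. Ddit3 encodes CHOP, a transcription factor of prolonged ER stress. It had 18.1, 14.4 and 15.3 CPM in Gls1_CamkIIaCre against 21.9, 21.9 and 20.7 CPM in control, with no overlap (log2 fold change -0.43 ± 0.089 SE, edgeR adjusted p = 0.00542). Without Gls1_CamkIIaCre 2 it did not pass (edgeR adjusted p = 0.0530). Nor did it pass by limma on log2(FPKM + 1) (adjusted p = 0.0506), log2(FPKM + 0.1) (0.0501) or log2(FPKM + 1) with no filter (0.0943). Ddit3 shares 77 bases with Mbd6 and 71 with Mars1, neither of which was called. Nupr1, a small stress-induced nuclear protein, had 7.07, 7.97 and 7.96 CPM in Gls1_CamkIIaCre against 10.8, 9.54 and 12.3 CPM in control, again with no overlap (log2 fold change -0.51 ± 0.12 SE, edgeR adjusted p = 0.0136). Nupr1 did not pass without Gls1_CamkIIaCre 1 (edgeR adjusted p = 0.0642), Gls1_CamkIIaCre 2 (0.0538) or control 3 (0.0633), or by limma on log2(FPKM + 1) with no filter (0.0857).

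Of 16 genes of the translocon and of N-glycosylation, through which new chains enter the lumen and receive their sugars, 0 were called by edgeR, DESeq2 or limma voom (unadjusted, 0 higher and 4 lower) and their median was -0.075. Stt3b, a catalytic subunit of the oligosaccharyltransferase, had 97.5 CPM in Gls1_CamkIIaCre and 107 CPM in control (edgeR adjusted p = 0.104), and Ssr2, a translocon-associated subunit, 49.4 and 54.4 CPM (edgeR adjusted p = 0.117). Ssr2 passed in 2 of the 18 alternatives, by limma on log2(FPKM + 1) and on log2(FPKM + 0.1) (adjusted p = 0.0398 in both). Chaperones outside the ER were set beside the ER lists for comparison. Of 14 cytosolic and mitochondrial chaperones 0 were called by edgeR or limma voom (unadjusted, 3 higher and 3 lower), and their median was 0.015. Hsp90aa1, the inducible cytosolic Hsp90, had 1081 CPM in Gls1_CamkIIaCre and 997.2 CPM in control (edgeR adjusted p = 0.0632, and 0.0252 by DESeq2, its single call in this list). Hsph1, a cytosolic nucleotide exchange factor of the Hsp110 family, had 283.7 and 305.9 CPM (edgeR adjusted p = 0.108). Of the 18 alternatives, Hsp90aa1 passed in 5, DESeq2 among them, and Hsph1 in 1, the replicate block. All 3 Gls1_CamkIIaCre libraries lay below all controls for 7 of the 16 translocon and N-glycosylation genes, 7 of the 20 other ER chaperones, 2 of the 7 ATF4 targets, 1 of the 9 sensors, 1 of the 16 degradation genes and 1 of the 14 chaperones outside the ER, beside 13.6% of all tested genes. They lay above all controls for 0, 1, 1, 0, 2 and 3 genes of the same lists, beside 13.1% of all tested genes. No difference between any of these lists and the members was tested.

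**Figure D4:**
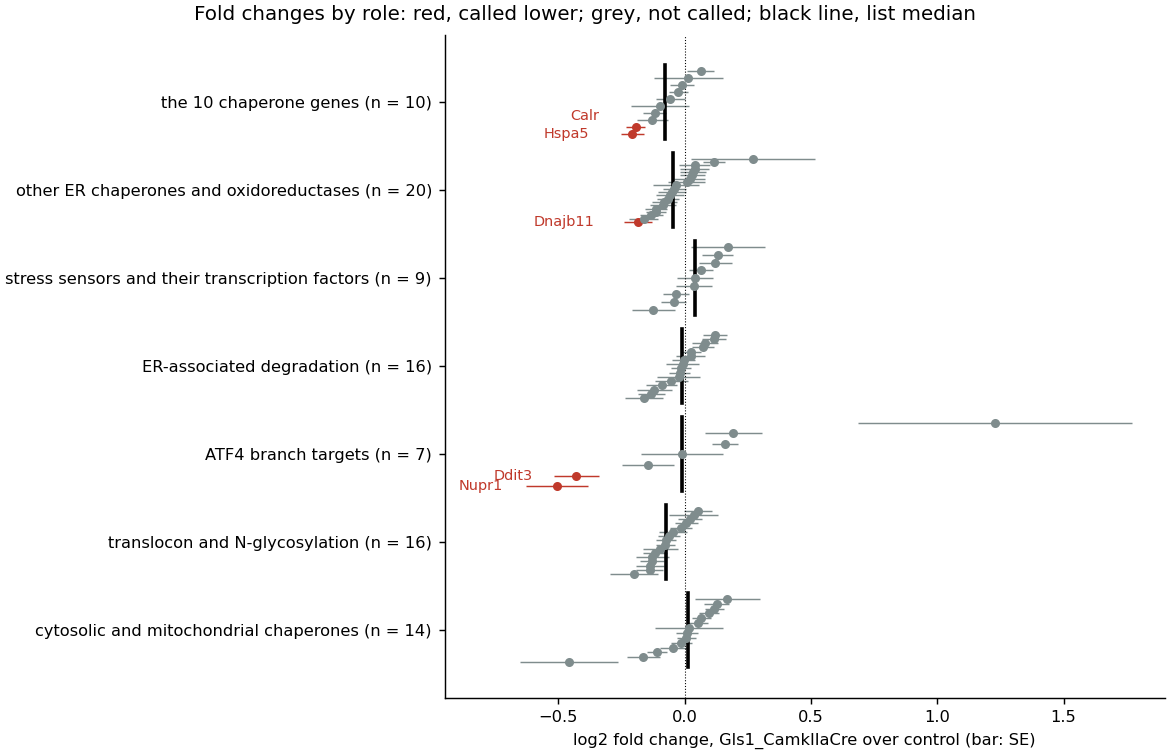
Log2 fold change of Gls1_CamkIIaCre over control for the 10 members and for the other lists, 1 point per tested gene with its SE as a bar, called genes in red and the list median as a black line. Calr, Hspa5, Dnajb11, Ddit3 and Nupr1 are the called genes, all on the lower side, and the medians lie between -0.077 and 0.041.

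Fold changes of the members were also set beside those of other genes with the same upstream element. Besides the 5 members, 14 tested genes held the ERSE within 250 bases upstream, among them the ER genes Dnajc3, Canx, Ero1lb, Derl3 and Syvn1. Of these 14, 0 were called by edgeR, DESeq2 or limma voom (unadjusted, 1 higher and 1 lower). Over all tested genes edgeR called 8.24% in either direction, and no difference from that share was tested. The median log2 fold change of the 14 was -0.015. Of the 5 members with the element, Hspa5 and Calr were called and Hsp90b1, Pdia6 and Creld2 were not. Genes with these letters thus included both called and uncalled members.

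**Figure D5:**
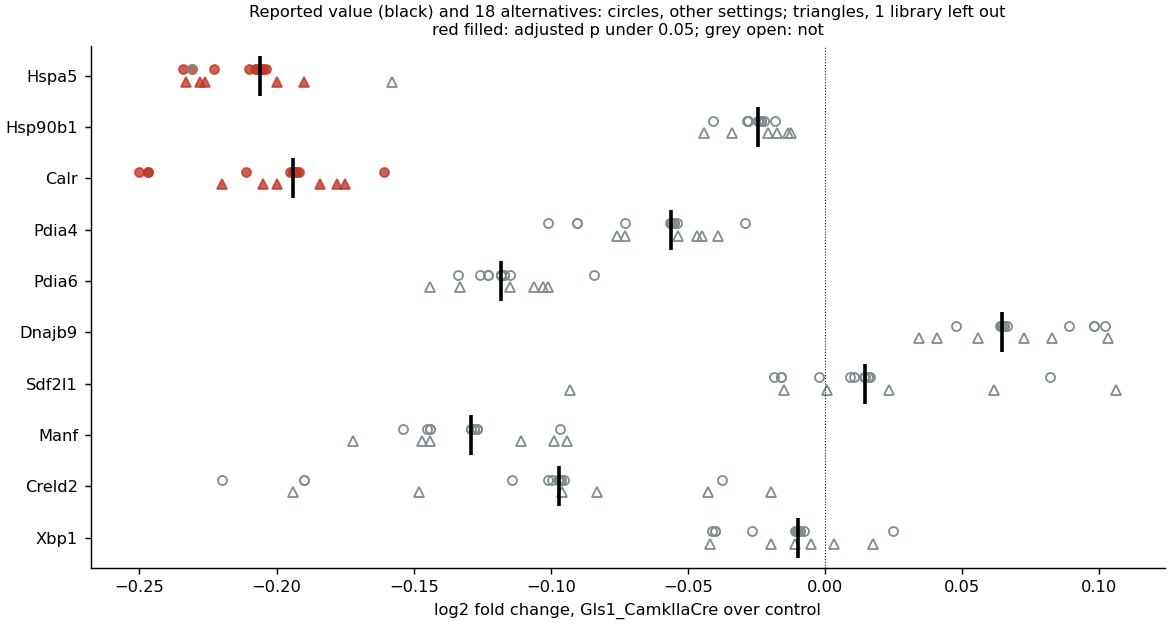
Log2 fold change of each member under the reported analysis (black line) and 18 alternatives (circles, other settings; triangles, 1 library left out), filled red where the adjusted p was under 0.05. Calr is red throughout, Hspa5 is grey in 2 alternatives, no other member is red in any, and points of Xbp1 and Sdf2l1 fall on both sides of 0.

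Across the 18 alternatives, the log2 fold change of Calr lay between -0.25 and -0.16 and that of Hspa5 between -0.23 and -0.16, as the plot of alternatives shows. No other member passed in any of them, the smallest adjusted p among those 8 genes being 0.0736 for Pdia6.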

How the data were processed

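Bulk RNA libraries of 3 Gls1_CamkIIaCre and 3 control prefrontal cortices were, per the labels' protocols, made from TRIzol-extracted RNA with the SMARTer kit for mRNA. The authors deposited raw read counts per gene and, for the same genes, FPKM values (fragments scaled by gene length and depth), both per the file headers. Per the submitters' processing notes, reads were placed on GRCm38 (mm10). Aligner, counter, strand setting and FPKM tool were not given in the sources used here. RefSeq GRCm38.p6 matched 21727 of 21878 rows and restored 27 symbols stored as dates.

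Counts were tested with edgeR 4.0.16 (R 4.3.3; TMM, filterByExpr, robust quasi-likelihood, no covariate), with Benjamini-Hochberg adjustment over 14440 genes and calls at 0.05. The common biological coefficient of variation was 4.75%. Intervals use the fitted SE. FPKM served for levels between genes and as an alternative input. DESeq2 1.42.0, limma 3.58.1 (voom), other scalings and filters, a replicate block, a length and GC correction and each library left out were alternatives. The procedure was tested on simulated counts. Replicates are separate mice, per the labels.

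Named genes were all members, the called genes of each list (the 4 of smallest p where more than 6 were called, the 2 of smallest p where none was), Camk2a, counts over each cell type list, and the 5 genes most like the members' mean. The members and lists were chosen with earlier results of these data known. The level of the targeted gene is not reported here.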

Additional observations from a re-analysis of the deposited data

How the results depend on the processing

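Hspa5 and Calr kept their direction in all 18 alternatives, and 0 members were called higher in any. The 2 members called lower became 1 (Calr) on log2(FPKM + 1) with no filter, where Hspa5 had an adjusted p of 0.0794. Leaving out a library gave 1 to 2 members lower and 415 to 1098 genes called in all, against 1190. Over all genes, 609 were called on log2(FPKM + 1), 643 on log2(FPKM + 0.1) and 178 on log2(FPKM + 1) with no filter. The leave-out settings had fewer libraries, and the FPKM settings used limma on FPKM in place of edgeR on counts. The cause of the lower numbers of calls was not tested. Values near 0 changed sign without passing. Sdf2l1, at 0.015 on the log2 scale, was -0.0022 with upper-quartile factors, -0.016 on log2(FPKM + 1) with or without a filter, -0.019 on log2(FPKM + 0.1), -0.015 without control 1, and between -0.093 (without Gls1_CamkIIaCre 3) and 0.11 (without Gls1_CamkIIaCre 2) over all single libraries left out. Xbp1, at -0.010, was 0.025 with the length and GC correction, 0.0034 without control 3, and between -0.042 (without Gls1_CamkIIaCre 3) and 0.017 (without Gls1_CamkIIaCre 2) over all single libraries left out. The median log2 fold change of all genes was lowest at -0.031, on log2(FPKM + 0.1). Whether replicate numbers pair the samples could not be decided from 3 libraries a group, and the reported test used no pairing. Deviations of same-numbered libraries correlated at 0.13, -0.023 and 0.13. Gls1_CamkIIaCre 1 and 3, but not 2, correlated best with their own number. A replicate block raised the genes called to 1758 and left the members at 2 lower, with 5 other ER chaperones lower (1 without it), 1 ATF4 target higher (0 without it), and 2 chaperones outside the ER higher and 1 lower (0 without it).

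With 3 mice a group, the lower ends of the 95% intervals of the members that did not pass lay between -3.16% (Dnajb9) and -20.8% (Creld2), so a decline down to each gene's own limit lies within its interval.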

Other observations

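Across the wider annotation, 145 tested genes besides the members carried the KEGG term for protein processing in the ER, as deposited with the tables. Of these 3 (2.07%) were called higher and 8 (5.52%) lower by edgeR, with a median log2 fold change of -0.0075. Over all tested genes the shares were 3.95% higher and 4.29% lower, and no difference from them was tested. The called genes with this term are named here after their values were seen. Wfs1, the ER membrane protein wolframin, had 91.6, 95.9 and 103 CPM in Gls1_CamkIIaCre against 124, 118 and 129 CPM in control (log2 fold change -0.35, edgeR adjusted p = 0.000338). Bag1, a cochaperone of cytosolic Hsp70, had a log2 fold change of -0.28, Man1a, a mannosidase that trims glycans, -0.25, Eif2ak2, the kinase activated by double-stranded RNA, -0.49, Cryab, a small heat shock protein, -0.22, and Bcap31, an ER membrane protein, -0.19. The others lower were Ddit3 and Dnajb11. Those higher were Hspa2, an Hsp70 family member, at 0.32, Uggt2, of the family of enzymes that reglucosylate glycoproteins, at 0.19, and Sec23a, a coat protein of vesicles that leave the ER, at 0.16. Among 37 other tested genes annotated to the ER lumen, 3 (8.11%) were called higher and 5 (13.5%) lower. Among 60 annotated to the response to ER stress, 3 (5.0%) were called in each direction. These shares too stand beside 3.95% higher and 4.29% lower over all tested genes.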
